A study of Mus musculus with 10 samples.

Results

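Astrocytes of the spinal cord take up the glutamate and GABA released at synapses, clear potassium from the extracellular space and move water between tissue and vessels. The genes for this work that are described here are Slc1a2, Slc1a3, Glul, Kcnj10, Aqp4, Gja1, Gjb6, Slc6a11 and Slc4a4. They were chosen by name, with earlier results of these data known, and matched through their Ensembl identifiers. All 9 were found among the 32506 genes of the count table. Their RNA was measured by RNA-sequencing of whole lumbar spinal cord from 5 SOD1G86R mice and 5 WT mice, with 1 library per mouse. SOD1G86R mice (genotype SOD1G86R +/-) carried a transgene for the mutant SOD1 enzyme, a model of amyotrophic lateral sclerosis (ALS), and WT mice were their non-transgenic litter-matched controls. All mice were females of the FVB background, perfused with cold PBS and taken at post natal day 95, when the SOD1G86R line has motor symptoms. The mutant protein is overexpressed in this line, so the comparison is with mice that lack both the mutation and the excess of SOD1. The promoter of the transgene is not given in the sources used here.

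Glutamate that leaves a synapse is removed mainly by astrocytes through the transporters GLT-1 (Slc1a2) and GLAST (Slc1a3), and is turned into glutamine by glutamine synthetase (Glul). GABA is taken up by GAT-3 (Slc6a11). Potassium enters astrocytes through the inward rectifier Kir4.1 (Kcnj10), bicarbonate and sodium cross together through NBCe1 (Slc4a4), and water passes through aquaporin-4 (Aqp4), which is packed into the endfeet around vessels. Connexin 43 (Gja1) and connexin 30 (Gjb6) form the gap junctions that join astrocytes into a network. Loss of the GLT-1 protein in the motor regions of patients with ALS, and of mice with mutant SOD1, has been described, and the comparison asks whether the RNAs of these genes differ at the symptomatic stage. Protein was not measured in the files analysed here.

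Libraries held 31494723 to 37080445 counts in SOD1G86R mice, against 29333590 to 46003999 counts in WT mice. Levels are given in CPM, the counts of a gene relative to a fixed library total, scaled by the trimmed mean of M values. Sod1 was at 3918 to 6415 CPM in SOD1G86R mice and at 127 to 209.8 CPM in WT mice, so every library fitted its label, and reads of the transgene and of the endogenous gene are summed in these values. SOD1G86R replicate 4 stood apart. It held 639 counts of Scn10a, a sodium channel of sensory neurons, against 0 to 3 in the other 9 libraries, and 14.9 CPM of Avil, another sensory ganglion gene, against 0.546 CPM or less in the others. Calls that leaving out SOD1G86R replicate 4 changed are therefore given with and without it. In edgeR without this mouse, 5.05% of 17184 tested genes passed an adjusted p of 0.01.

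In the SOD1G86R cord, 8 of the 9 genes differed from WT by a log2 fold change of -0.12 to 0.17, with 95% intervals reaching no further than -0.27 and 0.33, and Aqp4 was the gene with a larger value (0.37). None of the 9 genes passed an adjusted p of 0.01 in edgeR's quasi-likelihood test, in which 1.12% of the 16974 genes tested passed (147 higher and 43 lower in SOD1G86R). DESeq2 called 1, Aqp4, at 0.01, where it called 4.81% of all genes, and limma voom called 0, where it called 0.348% of all genes. At an edgeR adjusted p of 0.05, Aqp4 was the 1 gene that passed, where 4.6% of all genes did. At an unadjusted p under 0.05 there were 2, Aqp4 and Slc4a4, where 17.1% of all genes were past it. The CPM values of the groups did not overlap for 1 gene, Aqp4, and for 4.93% of all genes. The median log2 fold change of the 9 was 0.02, beside -0.01 over all genes tested. Of the 9 values 5 were above 0, where 47.7% of all genes tested were. Read against these shares of all genes, counts of 0 to 2 are no result about the 9 as a group. In whole tissue, a change in the number of astrocytes and a change in RNA per astrocyte cannot be told apart.

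**Figure D1:**
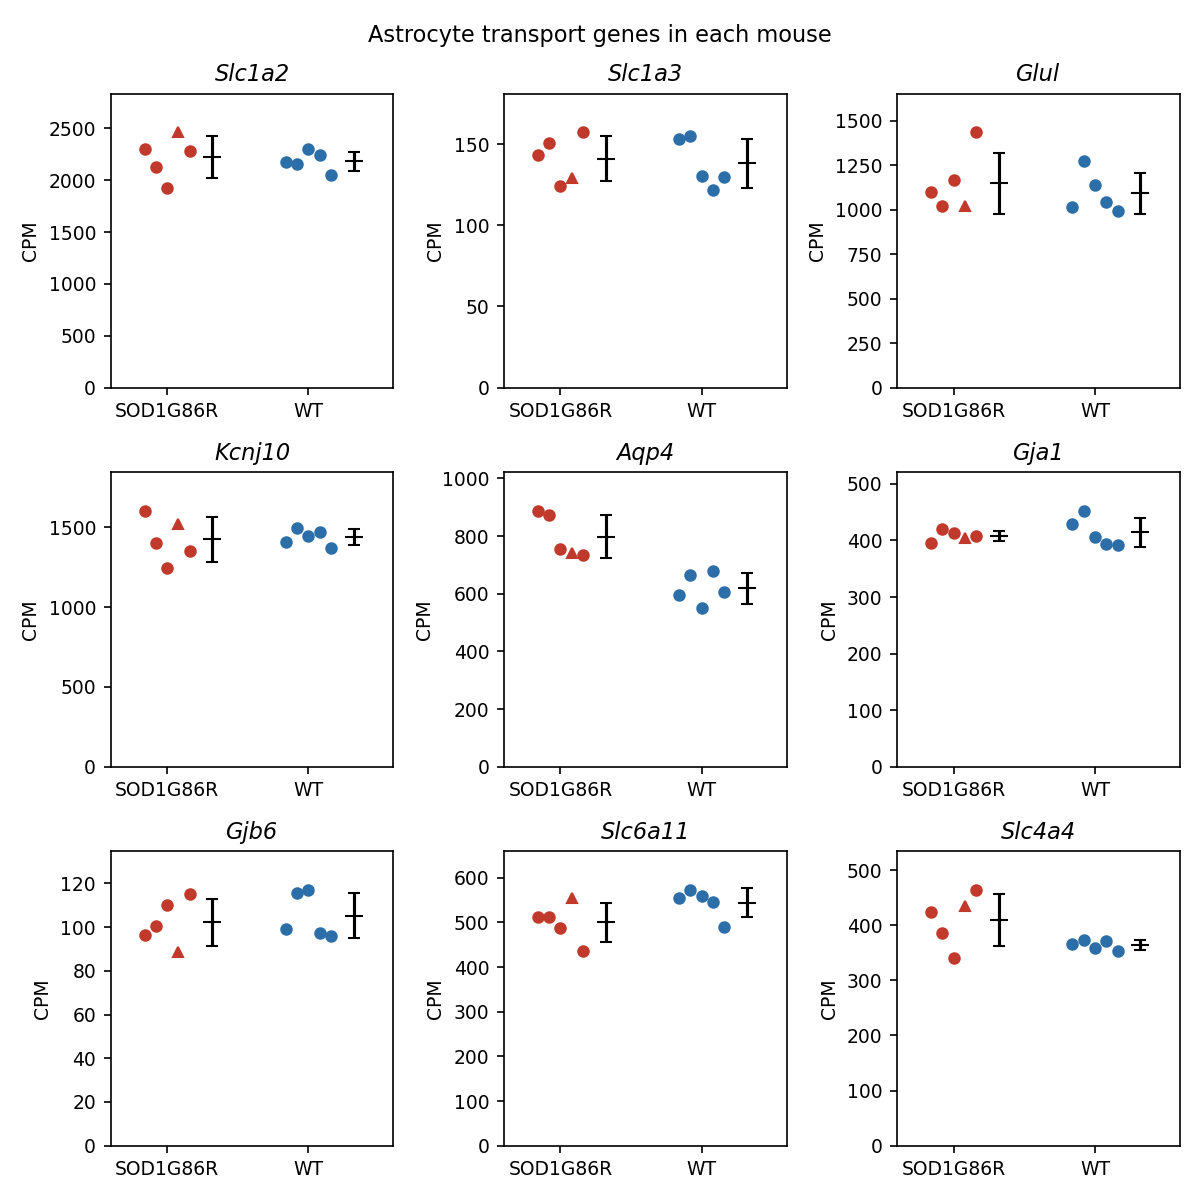
CPM of the 9 genes (vertical axes, from 0) in each of 5 SOD1G86R mice (red) and 5 WT mice (blue), with the mean and SD of each group as black bars and SOD1G86R replicate 4 as a triangle. Aqp4 is the panel in which all SOD1G86R points lie above all WT points.

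Levels can be compared between genes only per length, so CPM was divided by the total exon length of each gene in kilobases. This length joins the exons of all annotated transcripts, and the transcripts expressed were not resolved. The order of the genes therefore depends on the annotation. On this scale glutamine synthetase was the highest, with 345 ± 51.9 CPM per kb in SOD1G86R mice and 328 ± 34.7 CPM per kb in WT mice (SD, n = 5 each). Kcnj10 followed with 263 ± 26.0 CPM per kb in SOD1G86R and 266 ± 9.15 CPM per kb in WT, and Slc1a2 with 169 ± 15.5 CPM per kb in SOD1G86R and 166 ± 7.12 CPM per kb in WT (SD, n = 5 each). Each of these 3 lay above the next gene in 10 of 10 mice. The other glutamate transporter, Slc1a3, was the lowest of the 9, at 16.5 ± 1.65 CPM per kb in SOD1G86R and 16.2 ± 1.75 CPM per kb in WT (SD, n = 5 each). All 9 genes were abundant, between the percentiles 81.7 and 99.6 of the tested genes in WT mice.

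In the middle of the order, Aqp4 and Slc6a11 changed places between the genotype means. Aqp4 was at 128 ± 12.1 CPM per kb in SOD1G86R and 99.4 ± 8.58 CPM per kb in WT (SD, n = 5 each). Slc6a11 was at 99.0 ± 8.65 CPM per kb in SOD1G86R and 108 ± 6.29 CPM per kb in WT (SD, n = 5 each). The GABA transporter lay above the water channel in 3 of 10 mice, all of them WT. Below these came Gja1, Gjb6 and Slc4a4, at 37.9 to 39.8 CPM per kb on average in SOD1G86R and 33.7 to 40.4 CPM per kb in WT. These 3 neighbours did not keep their order, with Gja1 above Gjb6 in 7 and Gjb6 above Slc4a4 in 8 of 10 mice. Together the 9 genes took 0.714% ± 0.0400 of all counts in SOD1G86R mice and 0.690% ± 0.0261 in WT mice (SD, n = 5 each), with overlapping ranges of 0.653% to 0.749% in SOD1G86R and 0.649% to 0.713% in WT.

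Glutamate uptake was the first function examined. Slc1a2 (chr2:102658659-102790784, plus strand, build GRCm38) had 2305, 2129, 1926, 2467 and 2280 CPM in SOD1G86R mice 1 to 5, against 2173, 2158, 2299, 2239 and 2050 CPM in WT mice 1 to 5. The SOD1G86R mice held both the lowest and the highest value, and the WT range lay inside theirs. The log2 fold change of 0.02 ± 0.07 (SE) had an edgeR adjusted p of 0.892, and as a percent change its 95% interval ran between -8.01% and 12.5%. SOD1G86R replicate 4 was the mouse with most Slc1a2, and without it the log2 fold change was -0.02. Gm13872, annotated antisense to Slc1a2, shares 189 exonic bases with it and held 0 to 3 counts per library. Slc1a3 (chr15:8634124-8710764, minus strand) had 144, 151, 124, 129 and 158 CPM in SOD1G86R mice, against 153, 155, 130, 122 and 130 CPM in WT mice. The groups overlapped almost wholly, with a log2 fold change of 0.03 and a 95% interval of -0.15 to 0.21 (edgeR adjusted p = 0.888).

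The promoters of both glutamate transporters are shown because Stat3, a transcription factor of reactive astrocytes, was higher in SOD1G86R (values below). The 250 bases before the RefSeq start are given, 5′ to 3′ on the strand of the gene, in build GRCm38.p6. They lie at chr2:102706188-102706437 (plus strand) for Slc1a2, inside the span of the gene, and at chr15:8710808-8711057 (minus strand) for Slc1a3. Capitals mark matches to TTCNNNGAA, the letters that STAT proteins recognise, searched on both strands after the values of Stat3 had been seen.
Slc1a2: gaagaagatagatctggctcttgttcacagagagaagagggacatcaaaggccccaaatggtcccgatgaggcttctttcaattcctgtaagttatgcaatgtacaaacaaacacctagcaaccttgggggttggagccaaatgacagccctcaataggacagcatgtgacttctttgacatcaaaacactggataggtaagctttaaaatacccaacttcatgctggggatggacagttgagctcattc
Slc1a3: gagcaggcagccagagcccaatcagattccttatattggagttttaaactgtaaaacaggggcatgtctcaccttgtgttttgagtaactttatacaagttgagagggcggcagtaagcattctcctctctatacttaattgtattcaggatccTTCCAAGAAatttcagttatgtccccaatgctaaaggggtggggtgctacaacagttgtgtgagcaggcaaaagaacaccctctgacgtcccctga
Promoters of 8 of the 9 genes were found in the RefSeq table, 1 of them with 2 starts. Aqp4 was not among the 8, so its promoter was not searched. Slc1a3 held the motif, the other 7 did not, and 7.02% of 32851 promoters of this length hold it. A match of letters is a description of the sequence, and Slc1a3 did not differ between the genotypes beyond its error.

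Glutamine synthetase, the next step, showed the same overlap. Glul (chr1:153899944-153909723, plus strand) had 1097, 1017, 1165, 1022 and 1436 CPM in SOD1G86R mice, against 1015, 1272, 1136, 1040 and 991 CPM in WT mice. The SOD1G86R mean was raised by replicate 5, and without that mouse the log2 fold change of 0.07 (95% interval -0.14 to 0.29, edgeR adjusted p = 0.757) was replaced by -0.02. Glul shares a stretch of 1126 bases at 96.8% identity with its pseudogene Glns-ps1, which held 998 to 1944 counts per library, so a part of its reads may have been counted there or left out. Across the 10 mice Glns-ps1 was the gene whose level was most like that of Glul (Pearson r = 0.97, described with no test and chosen after its values were seen).

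GABA uptake had the lowest log2 fold change of the 9. Slc6a11 (chr6:114131241-114249952, plus strand) had 512, 512, 487, 554 and 435 CPM in SOD1G86R mice, against 555, 573, 558, 545 and 490.2 CPM in WT mice. SOD1G86R replicates 3 and 5 lay below all WT mice, replicates 1 and 2 lay between the lowest WT mouse and the next, and replicate 4 lay among the other WT mice. The log2 fold change was -0.12 (standard error 0.07, 95% interval -0.27 to 0.02, edgeR adjusted p = 0.383), and the difference did not pass the test. It was -0.08 without SOD1G86R replicate 5 and -0.16 without SOD1G86R replicate 4, and did not pass in either case.

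For potassium, Kcnj10 (chr1:172341210-172374085, plus strand) had 1603, 1403, 1242, 1518 and 1355 CPM in SOD1G86R mice, against 1407, 1493, 1446, 1469 and 1368 CPM in WT mice. The SOD1G86R values scattered more widely on both sides of the WT values, and the means of 1424 ± 141 CPM in SOD1G86R and 1437 ± 49.5 CPM in WT (SD, n = 5 each) were nearly the same. The log2 fold change was -0.01 (95% interval -0.16 to 0.13, edgeR adjusted p = 0.945). Slc4a4 (chr5:88886818-89239653, plus strand), the bicarbonate carrier, had 424, 386, 341, 434 and 464 CPM in SOD1G86R mice, against 365, 372, 358, 372 and 352 CPM in WT mice. The WT mice lay close together, 4 of 5 SOD1G86R mice lay above all of them, and SOD1G86R replicate 3 lay below all of them. With a log2 fold change of 0.17 (standard error 0.07, 95% interval 0.02 to 0.33), Slc4a4 had an unadjusted edgeR p of 0.0335 and an adjusted p of 0.240, and did not pass. Without SOD1G86R replicate 3, the mouse below the others, the log2 fold change was 0.23 (edgeR adjusted p = 0.0473), which did not pass 0.01 either. With any other library left out, the edgeR adjusted p of Slc4a4 was 0.228 to 0.443.

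The connexins of the astrocyte network came next. Gja1 (chr10:56377330-56402513, plus strand) had 396, 421, 413, 404 and 408 CPM in SOD1G86R mice, against 429, 452, 405, 393 and 391.7 CPM in WT mice. All SOD1G86R mice lay inside the WT range, and the log2 fold change of -0.02 had the narrowest interval of the 9, -0.13 to 0.09 (edgeR adjusted p = 0.883). Gjb6 (chr14:57123303-57133611, minus strand) had 96.3, 100.5, 110.0, 88.8 and 115 CPM in SOD1G86R mice, against 99.3, 116, 117, 97.5 and 96.2 CPM in WT mice. Its groups overlapped, with a log2 fold change of -0.04 (95% interval -0.22 to 0.14, edgeR adjusted p = 0.843).

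Water transport was read from the aquaporin of the endfeet. Aqp4 (chromosome 18, minus strand) had 888, 872, 755, 743 and 733 CPM in SOD1G86R mice, against 596, 666, 549, 680 and 606 CPM in WT mice. Each SOD1G86R mouse lay above each WT mouse, and the closest pair was SOD1G86R replicate 5 and WT replicate 4. The means were 798 ± 75.2 CPM in SOD1G86R and 619 ± 53.5 CPM in WT (SD, n = 5 each), a log2 fold change of 0.37 (standard error 0.08, 95% interval 0.20 to 0.53). The edgeR adjusted p was 0.0156, short of the threshold of 0.01, and Aqp4 was the gene of rank 349 by p among all tested. DESeq2 gave a log2 fold change of 0.37 with an adjusted p of 0.000213, and limma voom an adjusted p of 0.0261. Leaving out 1 library at a time, the log2 fold change stayed between 0.33 and 0.40, and the adjusted p ran between 0.0055 (without SOD1G86R replicate 4) and 0.0522 (without WT replicate 3).

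**Figure D2:**
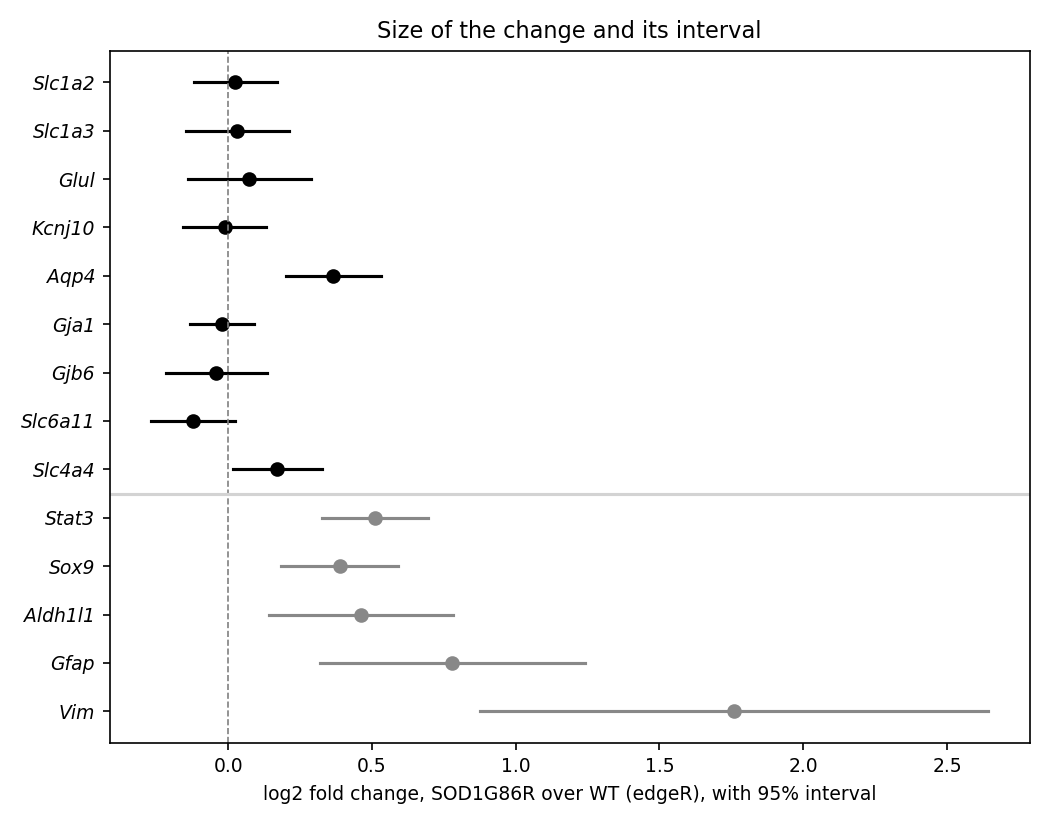
Log2 fold change of SOD1G86R over WT (horizontal axis, edgeR) with its 95% interval for the 9 genes (black) and for Stat3, Sox9, Aldh1l1, Gfap and Vim (grey), from 5 mice per group. Among the 9, the intervals of Aqp4 (0.20 to 0.53) and Slc4a4 (0.02 to 0.33) lie above 0, and the others cross it.

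The balance between pairs of these genes was tested within each library, where scaling has no part. Aqp4 had 0.554, 0.622, 0.608, 0.489 and 0.541 counts for each count of Kcnj10 in SOD1G86R mice, against 0.424, 0.446, 0.380, 0.463 and 0.443 in WT mice. The groups did not overlap, with SOD1G86R replicate 4 nearest to the WT mice. The ratio of water channel to potassium channel was higher in SOD1G86R by 0.38 on the log2 scale. The exact two-sided permutation p was 0.00794, the smallest that this number of mice can give, and 0.0317 after adjustment over 4 ratios. No threshold was set for the ratios, and 0.0317 is above the 0.01 used for genes. Kcnj10 hardly differed (log2 fold change -0.01). The ratio thus restates the difference of Aqp4 (0.37) in the same mice and is no separate result. The other 3 ratios did not differ beyond the spread. Slc1a2 to Slc1a3, the balance of the glutamate transporters, was 14.1 to 19.1 in SOD1G86R and 13.9 to 18.4 in WT (log2 difference -0.01, exact permutation p = 0.937). Gja1 to Gjb6 was 3.54 to 4.55 in SOD1G86R and 3.46 to 4.32 in WT (log2 difference 0.02, exact permutation p = 0.77). Glul to Slc1a2, glutamine synthesis against uptake, was 0.414 to 0.630 in SOD1G86R and 0.464 to 0.589 in WT (log2 difference 0.05, exact permutation p = 0.73). Adjusted over the 4 ratios, each of these p values was 0.937.

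**Figure D3:**
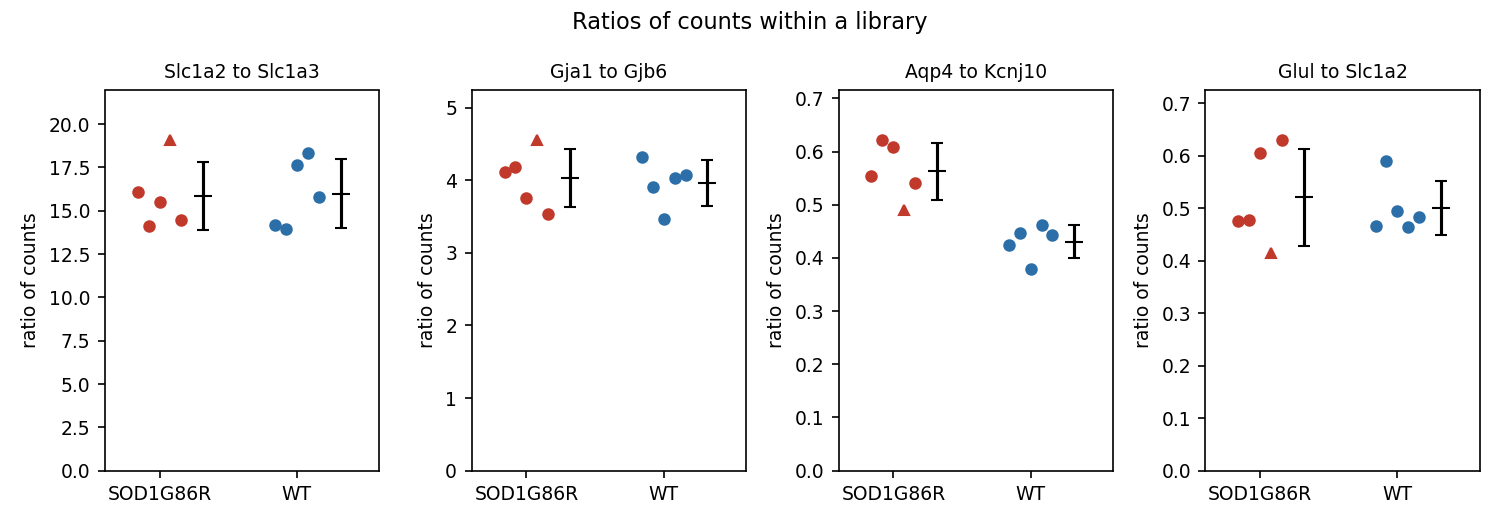
Counts of the first gene divided by counts of the second (vertical axes, from 0) within each library, for 5 SOD1G86R mice (red, replicate 4 as a triangle) and 5 WT mice (blue), with mean and SD as black bars. Aqp4 to Kcnj10 is the ratio whose groups do not overlap, at 0.489 to 0.622 in SOD1G86R and 0.380 to 0.463 in WT.

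The 9 genes did not move as 1 block from mouse to mouse. Over 10 mice and 36 pairs, Pearson r of log2 CPM ran between -0.44 and 0.79 with a median of 0.12. The strongest pair was Glul with Gjb6 (r = 0.79, permutation p = 0.00513, adjusted p = 0.185 over 36 pairs, Spearman rho = 0.68 with permutation p = 0.0346), and r was 0.73 without the 2 mice farthest from the median of Glul. Slc1a2 went with Kcnj10 (r = 0.75, permutation p = 0.0141, adjusted p = 0.237, Spearman rho = 0.70 with permutation p = 0.0306), where r was 0.46 without the 2 mice farthest from the median of Slc1a2. Of the 36 pairs, 4 had an unadjusted p under 0.05 and 0 passed the adjustment. All values of a mouse share 1 library and 1 scaling factor. Both genotypes are pooled, so that a difference between them enters r. As deviations from the group means, r was 0.85 for Glul with Gjb6 and 0.77 for Slc1a2 with Kcnj10. For Aqp4 it was -0.01 with Slc4a4 (0.50 over the 10 mice) and 0.45 with Kcnj10 (0.16 over the 10 mice). The values from deviations were not tested.

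When the 9 genes were averaged as z scores, the highest mouse was WT replicate 2 (0.712) and the lowest WT replicate 5 (-0.841), with the SOD1G86R mice between -0.597 and 0.472. The tested genes whose level over the 10 mice was most like this mean were Ckap4 (Pearson r = 0.93), Ppp1r10 (0.90), Irx2 (0.90), Rfx4 (0.88) and Pxk (0.88). Rfx4 and Irx2 encode transcription factors, Ckap4 a protein of the endoplasmic reticulum and Ppp1r10 a regulatory subunit of protein phosphatase 1. These are the highest of all tested genes, given as a description with no test.

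Genes around each function were read from lists chosen with earlier results of these data known. Counts in all lists below stand beside these shares of all tested genes. An unadjusted edgeR p under 0.05 was reached by 17.1%, DESeq2 called 4.81%, and 47.7% had a positive log2 fold change. In the glutamate and glutamine cycle, 0 of 13 genes passed an edgeR adjusted p of 0.01, 4 had an unadjusted p under 0.05 and the median log2 fold change was 0.02. Slc1a4, a carrier of neutral amino acids such as serine and alanine, came closest, at 85.0 ± 5.08 CPM in SOD1G86R and 71.8 ± 1.63 CPM in WT (SD, n = 5 each) with groups that did not overlap and an edgeR adjusted p of 0.0163. It was the 1 gene of this list that DESeq2 called (adjusted p = 0.000116), and the 1 gene that edgeR called without SOD1G86R replicate 4 (log2 fold change 0.26, adjusted p = 0.00565). Slc1a6, a neuronal glutamate transporter, had a log2 fold change of -0.28 (edgeR adjusted p = 0.0880), and Slc7a11, the cystine and glutamate exchanger, one of 0.30 (edgeR adjusted p = 0.153). For uptake and breakdown of GABA and glycine, 0 of 6 tested genes passed (Slc6a12 was under the count filter), 2 had an unadjusted p under 0.05 and DESeq2 called 0, with a median of 0.01. Slc6a13, another GABA transporter, had 0.44 (edgeR adjusted p = 0.161), Aldh5a1, an enzyme of GABA breakdown, -0.16 (adjusted p = 0.211), and Slc6a9, the glial glycine transporter, -0.10 (adjusted p = 0.427).

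The sodium pump, which drives these carriers, and other potassium carriers gave 0 of 12 genes in edgeR and 0 in DESeq2, 2 with an unadjusted p under 0.05 and a median of -0.04. Fxyd7 and Fxyd1, small regulators of the pump, had log2 fold changes of -0.24 (edgeR adjusted p = 0.212) and 0.35 (adjusted p = 0.266), and the cotransporter Slc12a2 had -0.11 (adjusted p = 0.362). In the list of water channels and endfoot anchors, 0 of 13 passed in edgeR and 0 in DESeq2, and 4 had an unadjusted p under 0.05. Of the 13 values 11 were positive, with a median of 0.12, where 47.7% of all genes tested were positive. Dag1, dystroglycan, which anchors the dystrophin complex to the basal lamina, had 0.21 (edgeR adjusted p = 0.0847), Trpv4, a cation channel, 0.50 (adjusted p = 0.190), and Dmd, dystrophin, 0.20 (adjusted p = 0.225). Apart from Trpv4 and Aqp9, each value in this list was below that of Aqp4.

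Other connexins and junction proteins gave 0 of 10 in edgeR and 0 in DESeq2, 3 with an unadjusted p under 0.05 and a median of -0.04. Tjp1, a scaffold of tight and gap junctions, had 0.21 (edgeR adjusted p = 0.0768), while the connexins Gjc3 and Gjb1, known from oligodendrocytes, had -0.28 (adjusted p = 0.0820) and -0.24 (adjusted p = 0.223). Without SOD1G86R replicate 4, Gjc3 was lower in SOD1G86R and passed, as the 1 gene of this list (-0.36, edgeR adjusted p = 0.00109). Bicarbonate, proton and lactate transport gave 0 of 11 in edgeR, 6 with an unadjusted p under 0.05 and a median of 0.05. Car14, a membrane-bound carbonic anhydrase, was at 80.1 ± 7.63 CPM in SOD1G86R and 99.3 ± 8.41 CPM in WT (SD, n = 5 each), with an edgeR adjusted p of 0.0303, and was the 1 gene of this list that DESeq2 called (adjusted p = 0.0027). The lactate carriers Slc16a1 and Slc16a3 had 0.20 (adjusted p = 0.113) and 0.66 (adjusted p = 0.138).

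**Figure D4:**
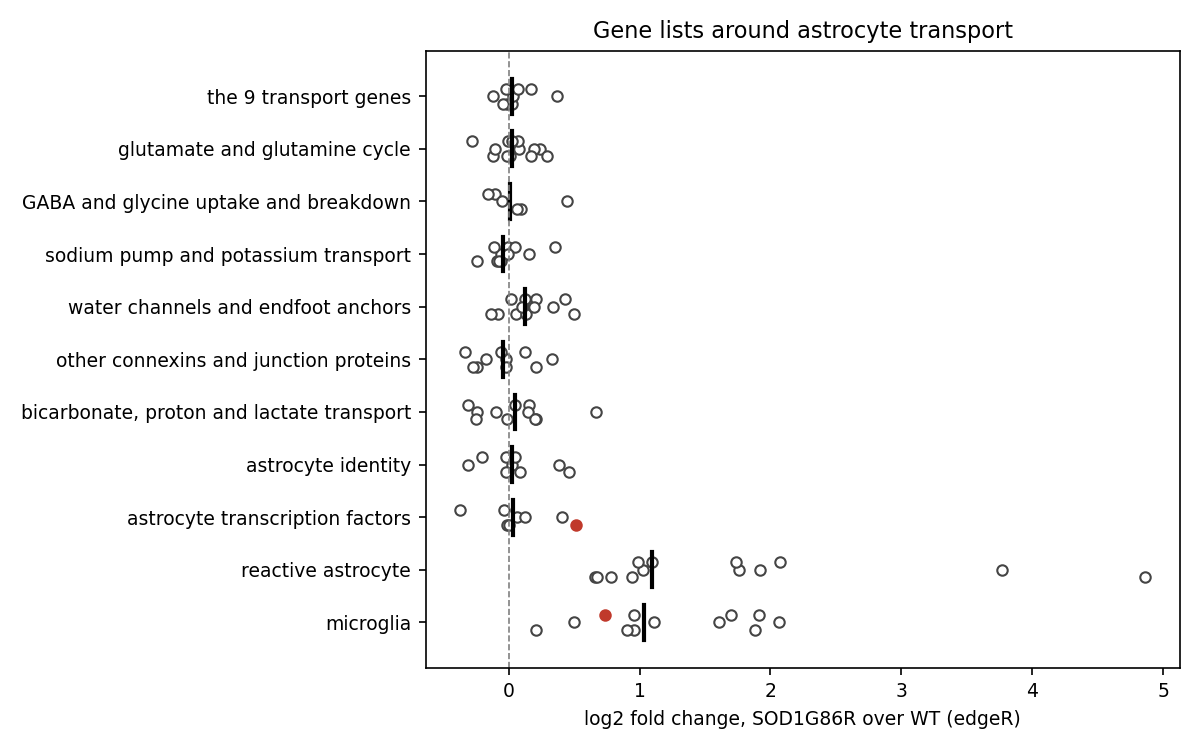
Log2 fold change of SOD1G86R over WT (horizontal axis, edgeR, 5 mice per group) for each tested gene of 11 lists, with the list median as a black bar and genes with an adjusted p under 0.01 filled in red. The medians of the transport lists lie between -0.04 and 0.12, and those of the reactive astrocyte and microglia lists at 1.10 and 1.04.

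Genes of the reactive astrocyte state were read beside the transport genes. Of 13 reactive astrocyte genes, 0 passed an edgeR adjusted p of 0.01 over all 10 libraries, 12 had an unadjusted p under 0.05 and all 13 were higher on average in SOD1G86R, with a median log2 fold change of 1.10. DESeq2 called 12 of the 13, where it called 4.81% of all genes. Without SOD1G86R replicate 4, 11 of 13 passed, where 5.05% of all genes did, and this mouse averaged 0.54 above the WT mean over the list on the log2 scale, where the other 4 SOD1G86R mice averaged 1.495 to 2.17. Gfap, the intermediate filament of reactive astrocytes, was at 6075, 4443, 4791, 2418 and 4757 CPM in SOD1G86R mice, against 3076, 2982, 2309.7, 2496 and 2232 CPM in WT mice. Vim, another intermediate filament, was at 77.6 CPM in SOD1G86R replicate 4 and at 275 to 400.5 CPM in the other SOD1G86R mice, against 74.4 to 96.8 CPM in WT mice. Their log2 fold changes over all 10 libraries were 0.78 for Gfap and 1.76 for Vim, and without SOD1G86R replicate 4 they were 0.94 (edgeR adjusted p = 0.000154) and 2.002 (adjusted p = 5.15e-07). SOD1G86R replicate 4 lay inside the WT range for both filaments, but above all WT mice for Timp1 (1.01 CPM) and Osmr (8.07 CPM). Of the transport genes, it lay above all WT mice for Aqp4, Slc4a4, Slc1a2 and Kcnj10. The smallest adjusted p values of this list belonged to Timp1, an inhibitor of metalloproteinases, Osmr, the oncostatin M receptor, and Cxcl10, a chemokine, with log2 fold changes of 3.77 (edgeR adjusted p = 0.0118), 1.74 (adjusted p = 0.0129) and 4.86 (adjusted p = 0.0141).

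Genes used to mark astrocytes gave mixed values. Of 9 identity genes, 0 passed in edgeR, with a median log2 fold change of 0.03. An unadjusted p under 0.05 was reached by 4, of which 2 were higher and 2 lower in SOD1G86R. Sox9, a transcription factor of the astrocyte lineage, had 0.39 (edgeR adjusted p = 0.0334, DESeq2 adjusted p = 0.00342), Aldh1l1, a folate enzyme used to mark astrocytes, had 0.46 (adjusted p = 0.115), and Slc7a10, a serine and glycine carrier, had -0.31 (adjusted p = 0.0964). Without SOD1G86R replicate 4, 2 of these 9 passed in opposite directions, Aldh1l1 with 0.56 (edgeR adjusted p = 0.00729) and Slc7a10 with -0.39 (adjusted p = 0.00741). Of 8 transcription factors of astrocytes, Stat3 passed and was higher in SOD1G86R, with 145 ± 21.1 CPM in SOD1G86R and 102 ± 3.70 CPM in WT (SD, n = 5 each), groups that did not overlap and a log2 fold change of 0.51 ± 0.09 (SE), for which edgeR gave an adjusted p of 0.00665. This call held without SOD1G86R replicate 4 (adjusted p = 6.95e-05) and was lost when any 1 of the other 9 libraries was left out (edgeR adjusted p of 0.0143 to 0.029). Whole tissue cannot show in which cells Stat3 or the reactive astrocyte genes were higher. Hes1 and Hes5, factors of the Notch pathway, had 0.41 (adjusted p = 0.153) and -0.37 (adjusted p = 0.286). Limma voom called 0 genes in each of the lists read here, Stat3 included.

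**Figure D5:**
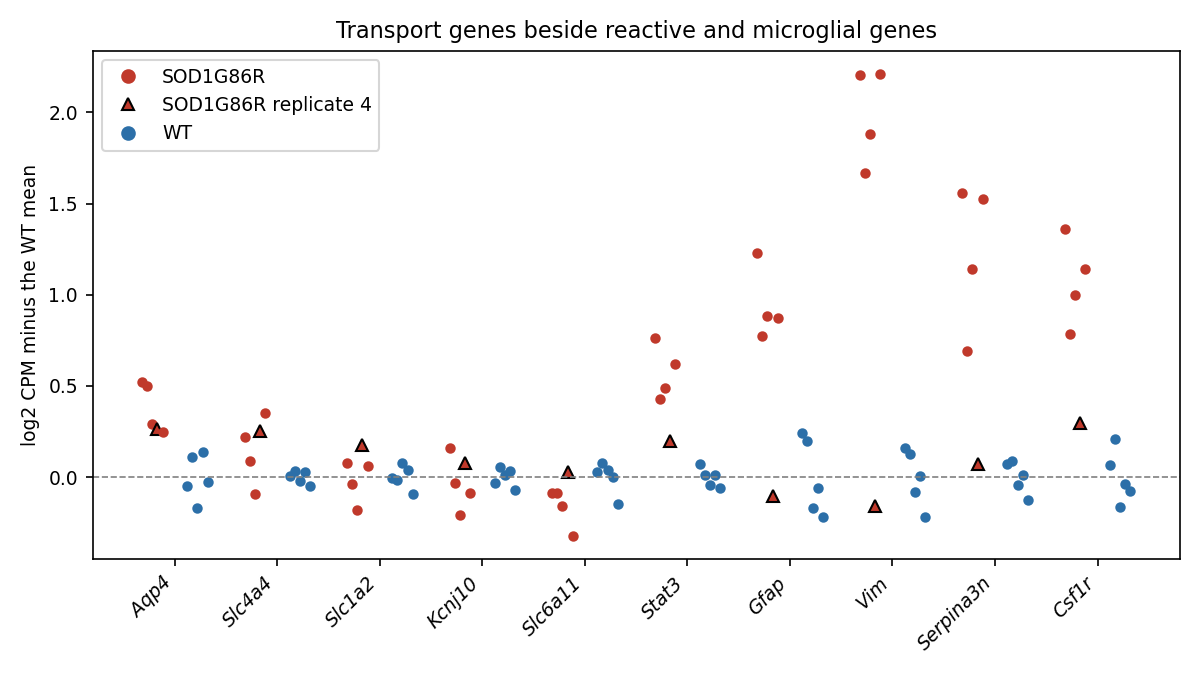
Log2 CPM of each mouse minus the WT mean (vertical axis) for 5 of the 9 transport genes, for Stat3, for the reactive astrocyte genes Gfap, Vim and Serpina3n and for the microglial gene Csf1r, in 5 SOD1G86R mice (red) and 5 WT mice (blue). SOD1G86R replicate 4 (triangle) is within or near the WT values for Gfap, Vim and Serpina3n, and within them for Slc6a11. It is above all WT mice for Aqp4, Slc4a4, Slc1a2, Kcnj10, Stat3 and Csf1r.

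Markers of other cells in the tissue were read beside these values. All 12 microglial genes were higher on average in SOD1G86R, with a median log2 fold change of 1.04, and their summed level was 660.1 to 1538 CPM in SOD1G86R and 482 to 631 CPM in WT. Cx3cr1, the fractalkine receptor, passed (log2 fold change 0.73, edgeR adjusted p = 0.00809). Without SOD1G86R replicate 4, 11 of 12 passed, where 5.05% of all genes did. When any 1 of the other 9 libraries was left out, the call of Cx3cr1 was lost (edgeR adjusted p of 0.0156 to 0.0326). C1qc, a complement component, had 2.07 (adjusted p = 0.0116). DESeq2 called 11 of the 12, where it called 4.81% of all genes. Microglial markers, reactive astrocyte genes and Aqp4 were all higher in SOD1G86R, and the part of these markers in the difference of Aqp4 was not tested. Oligodendrocyte genes gave 0 of 8, with a median of -0.11 and a summed level of 33410 to 37997 CPM in SOD1G86R, against 37227 to 42218 CPM in WT. Endothelial genes, of the vessels that the endfeet surround, gave 0 of 5, a median of 0.25 and sums of 179 to 209 CPM in SOD1G86R and 121 to 199 CPM in WT, and their part in the difference of Aqp4 was not tested either. Neuronal and motor neuron genes gave 0 of 7 and 0 of 5, with medians of -0.06 each. Precursors of oligodendrocytes, ependymal cells, fibroblasts and blood gave 0 of 4 each, with medians of 0.03, -0.44, 0.24 and -0.80. In these lists and those of oligodendrocytes and endothelium, 0 to 3 genes had an unadjusted edgeR p under 0.05. The list with 3 was the endothelial one, 3 of 5 genes, where 17.1% of all genes were past it. All 5 endothelial values were positive, where 47.7% of all genes were. DESeq2 called 1 gene in these lists, Cspg4, a proteoglycan of the precursors (log2 fold change 0.29, DESeq2 adjusted p = 0.00226).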

How the data were processed

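RNA of lumbar spinal cord from 5 SOD1G86R and 5 WT mice was sequenced, and the authors deposited whole-number read counts per Ensembl gene. Per the labels and methods, reads were mapped to mm10 with TopHat2 2.0.14 and counted with HTSeq 0.6.1 and Ensembl release 81. How the libraries were made, whether counting used strand and which reads were filtered is not given in the sources used here. Sense and antisense reads of overlapping genes may thus be mixed. The authors compared the groups with DESeq2.

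From the deposited counts, genes kept by filterByExpr (16974 of 32506) were tested with edgeR 4.0.16 (TMM scaling, robust quasi-likelihood F test, genotype as the only term, R 4.3.3). P-values were adjusted by Benjamini-Hochberg over all genes tested, with a threshold of 0.01. The 95% intervals used the quasi-likelihood standard error. DESeq2 1.42.0, limma 3.58.1 (voom), other scalings and filters, and each library left out were alternatives. Count ratios were compared with two-sided exact permutation tests, and correlations with 100000 permutations. Exon lengths and positions came from GENCODE M21 (GRCm38). The code was tested on simulated data. No 2 libraries agreed closely enough to count as 1 (highest correlation of log2 CPM 0.993).

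The 9 genes and all lists were chosen with earlier results of these data known. Named were the 9 genes, at most 3 genes of each list, those lowest by p whether they passed or not, and the 5 genes most like the mean of the 9. Some genes that this rule names are not reported here. Genes that DESeq2 called in the transport lists, Aqp9, Glns-ps1, Gfap, Vim and Serpina3n were named after their values were seen.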

Additional observations from a re-analysis of the deposited data

Results flagged for a closer look

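In 26 groups of 5 values (the 9 genes and 4 ratios in each genotype), 1 value lay far from its group by Dixon's criterion, where chance alone gives about 1 in 20. The ratio of Glul to Slc1a2 was 0.589 in WT replicate 2, against 0.464 to 0.494 in the other 4 WT mice, and the gap was 0.740 of the group's range on the log2 scale, over the critical value of 0.71. The SOD1G86R values of this ratio were 0.414 to 0.630.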

How the results depend on the processing

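Over 171 recomputed fold changes of the 9 genes, 156 kept their direction and side of the threshold, 11 changed sign and 4 passed the threshold of 0.01, all of Aqp4. Aqp4 passed without a filter on low counts (adjusted p = 0.00906), in DESeq2 (0.000213 without and 0.00022 with a normal prior) and without SOD1G86R replicate 4 (0.0055), so that 1 of the 9 genes was called under each of these settings and at an adjusted p of 0.05. Leaving out 1 library at a time gave 0 to 1 called genes, and log2 fold changes of -0.0164 to 0.0719 for Slc1a2, -0.0134 to 0.0754 for Slc1a3, -0.0225 to 0.134 for Glul, -0.059 to 0.0326 for Kcnj10, -0.0403 to 0.0127 for Gja1, -0.0897 to 0.00491 for Gjb6, -0.163 to -0.078 for Slc6a11 and 0.121 to 0.231 for Slc4a4. The log2 differences of the ratios were then -0.0802 to 0.0409 for Slc1a2 to Slc1a3, -0.0237 to 0.0689 for Gja1 to Gjb6, -0.0267 to 0.124 for Glul to Slc1a2 and 0.34 to 0.43 for Aqp4 to Kcnj10. Over all genes, 190 were called, against 816 in DESeq2, 807 with a normal prior, 59 in limma voom, 298 without robust estimation, 781 at an adjusted p of 0.05, and 31 to 868 with 1 library left out (868 without SOD1G86R replicate 4). The cause of these differences in number was not tested. The labels do not say whether replicate numbers pair litter mates. Same-numbered mice deviated together with r of -0.38 to 0.26, which cannot decide it, because litter mates need not vary together. With the replicate block, 140 genes and 0 of the 9 were called, Aqp4 had an adjusted p of 0.0205, and the difference of 0.38 in the Aqp4 to Kcnj10 ratio had an exact p of 0.0625, the smallest that 5 pairs allow.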
